A study of Mus musculus with 6 samples.

Results

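The 10 genes described here encode proteins of the BCL2 family, which decides at the mitochondrial outer membrane whether a cell survives or dies. They are the survival genes Bcl2, Bcl2l1, Mcl1 and Bcl2l2, the effector gene Bak1, and the BH3-only genes Bcl2l11, Bad, Bid, Bik and Bmf. The members were taken by name, and for each the brightest probe set, by its average across the 6 arrays, was taken among those annotated with exactly 1 gene symbol. All 10 had a value, out of 22180 genes with a value, and all 10 were among the 13308 genes tested after the dimmest genes were set aside.

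The cells were Ly6D-negative common lymphoid progenitors (CLPs), early bone marrow cells that can still form T, B and natural killer cells, from mice aged 6 to 8 weeks. In the genotypes, OcnCre is a Cre recombinase driven by the osteocalcin promoter, and iDTR is an allele that gives Cre-expressing cells a receptor for diphtheria toxin. Mutant mice were OcnCre+;iDTR+/- and control mice were OcnCre-;iDTR+/-, and both received the toxin every day for 4 weeks, with cells sorted the day after the last dose, so the controls lack only Cre. RNA of 3 mutant and 3 control samples was measured on Affymetrix arrays, 1 per sample, and the values are log2 probe set intensities. The labels do not say whether the replicates came from separate mice or from pools, so a p-value here reflects variation among these samples, which may be technical, and the number of arrays limits the precision. Osteocalcin is a gene of bone-forming cells, and the question is whether their removal alters survival gene transcripts in a neighbouring population.

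In the BCL2 family the survival proteins hold the effectors BAK and BAX in check. The BH3-only proteins are the sensors: they bind and block the survival proteins or activate the effectors, which then open the outer membrane and release cytochrome c. Lymphoid progenitors are known to depend on interleukin 7, whose signal sustains BCL2 and MCL1 and restrains BIM, the product of Bcl2l11.

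The promoters of the survival genes Bcl2 and Mcl1 and of the BH3-only gene Bcl2l11, family genes tied to interleukin 7, are shown first, so that their values below can be read beside those of the factors known to act on them. Each is the 250 bases before an annotated start, 5′ to 3′, from RefSeq on GRCm38.p6. Capitals mark short motifs searched on both strands, namely TGACGT (the core of the cyclic AMP response element), GTAAACA (forkhead), TTCNNNGAA (STAT), CCGGAA (ETS) and GGGCGG (GC box). The Bcl2 stretch is chr1:106714291-106714540 on the minus strand, the Mcl1 stretch chr3:95658471-95658720 on the plus strand, and the Bcl2l11 stretch shown chr2:128125788-128126037 on the plus strand.
Bcl2: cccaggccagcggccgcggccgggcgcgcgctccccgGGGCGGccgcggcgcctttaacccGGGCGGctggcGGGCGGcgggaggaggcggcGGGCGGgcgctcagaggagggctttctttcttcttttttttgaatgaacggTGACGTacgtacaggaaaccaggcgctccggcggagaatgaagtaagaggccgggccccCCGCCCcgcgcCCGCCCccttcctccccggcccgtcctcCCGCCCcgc
Mcl1: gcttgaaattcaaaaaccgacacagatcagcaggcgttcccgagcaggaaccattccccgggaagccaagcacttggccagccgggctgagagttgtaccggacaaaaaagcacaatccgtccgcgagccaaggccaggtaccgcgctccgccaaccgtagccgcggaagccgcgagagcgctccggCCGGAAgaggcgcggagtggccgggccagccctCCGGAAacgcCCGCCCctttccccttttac
Bcl2l11: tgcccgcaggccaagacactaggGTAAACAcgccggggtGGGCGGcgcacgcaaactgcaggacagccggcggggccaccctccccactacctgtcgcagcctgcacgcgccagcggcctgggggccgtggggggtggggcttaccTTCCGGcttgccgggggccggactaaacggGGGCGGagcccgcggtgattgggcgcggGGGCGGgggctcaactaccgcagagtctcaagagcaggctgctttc
The Bcl2 stretch held 7 GC boxes and 1 TGACGT. The Mcl1 stretch held 2 ETS motifs and 1 GC box. Of 2 Bcl2l11 stretches in the table, the one shown, before the upstream start, held 1 forkhead motif, 1 ETS motif and 3 GC boxes. The other, chr2:128127325-128127574, held 0 forkhead motifs, 0 ETS motifs and 2 GC boxes. Over the 32851 promoter stretches of this length in the table, 6.47% held TGACGT, 3.17% the forkhead motif, 7.02% the STAT motif, 12% the ETS motif and 32.7% a GC box. Promoter stretches were matched for 9 members, 15 stretches in all, and not for Bik. Among them the forkhead motif was in 1 stretch, the ETS motif in 4, a GC box in 7 and the STAT motif in 0. A match describes letters, not a binding site.

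Mutant replicate 2 stood apart from the other arrays. Over the probe sets with 1 symbol its correlations were 0.960 to 0.970, and those among the other 5 arrays were 0.983 to 0.994. The Y-linked gene Eif2s3y was at 4.77 in mutant replicate 3 and 4.88 in control replicate 1, against 7.31 to 7.85 on the other 4 arrays. Y-linked expression therefore does not follow the groups. The sex-linked gene Xist was at 8.03, 5.57 and 10.72 in mutants and 11.04, 8.07 and 6.57 in controls. Mutant replicate 1 thus had Xist at 8.03 beside Eif2s3y at 7.74, and control replicate 2 had them at 8.07 and 7.82. Whether these samples hold RNA of both sexes was not tested. The label for the tissue reads as marrow stromal cells while the cell type reads as CLPs. The sort marker gene Il7r was bright, at 9.72 to 9.80 in mutants and 9.81 to 10.35 in controls, and of the stromal marker genes Cxcl12 lay at 5.75 to 6.27 in mutants and 5.99 to 6.16 in controls, and Lepr at 3.18 to 3.35 in mutants and 3.09 to 3.30 in controls. Ly6d, the gene of the marker these cells are sorted to lack, averaged 7.29 in mutants and 7.86 in controls. Its mean over the 6 arrays lay at percentile 88.7 of the genes with a value. Thy1, also listed as absent from the sorted cells, averaged 6.77 in mutants and 6.98 in controls, at percentile 79.8. The B lineage gene Cd79a averaged 10.35 in mutants and 10.55 in controls. Transcripts of granule-bearing myeloid cells were also bright, with S100a9 at 11.22 to 11.75 in mutants and 11.33 to 11.67 in controls. The source of these signals was not tested. In bulk samples, fewer cells of a type and less RNA per cell cannot be told apart.

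None of the 10 BCL2 family genes differed between mutant and control progenitors past the threshold. In limma, with p adjusted over all 13308 tested genes by Benjamini-Hochberg, 0 of 10 passed, where 0% of all tested genes did. At an unadjusted p under 0.05 it was 0 of 10 members and 8.03% of all tested genes, and the unmoderated test gave 0 members by either criterion. The mutant mean was lower for 6 members and higher for 4 (8 and 2 when arrays were centred on their medians), and 57.5% of all tested genes were lower. The median log2 difference was -0.08 over the members and -0.04 over all tested genes. Differences ran from -0.36 for Bak1 to 0.18 for Bik. The values of the groups did not overlap for 1 member, Bad, which was lower in mutants, against 9.99% of tested genes not overlapping with lower mutants and 5.40% with higher mutants. A share of 1 in 10 members is near that background.

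**Figure D1:**
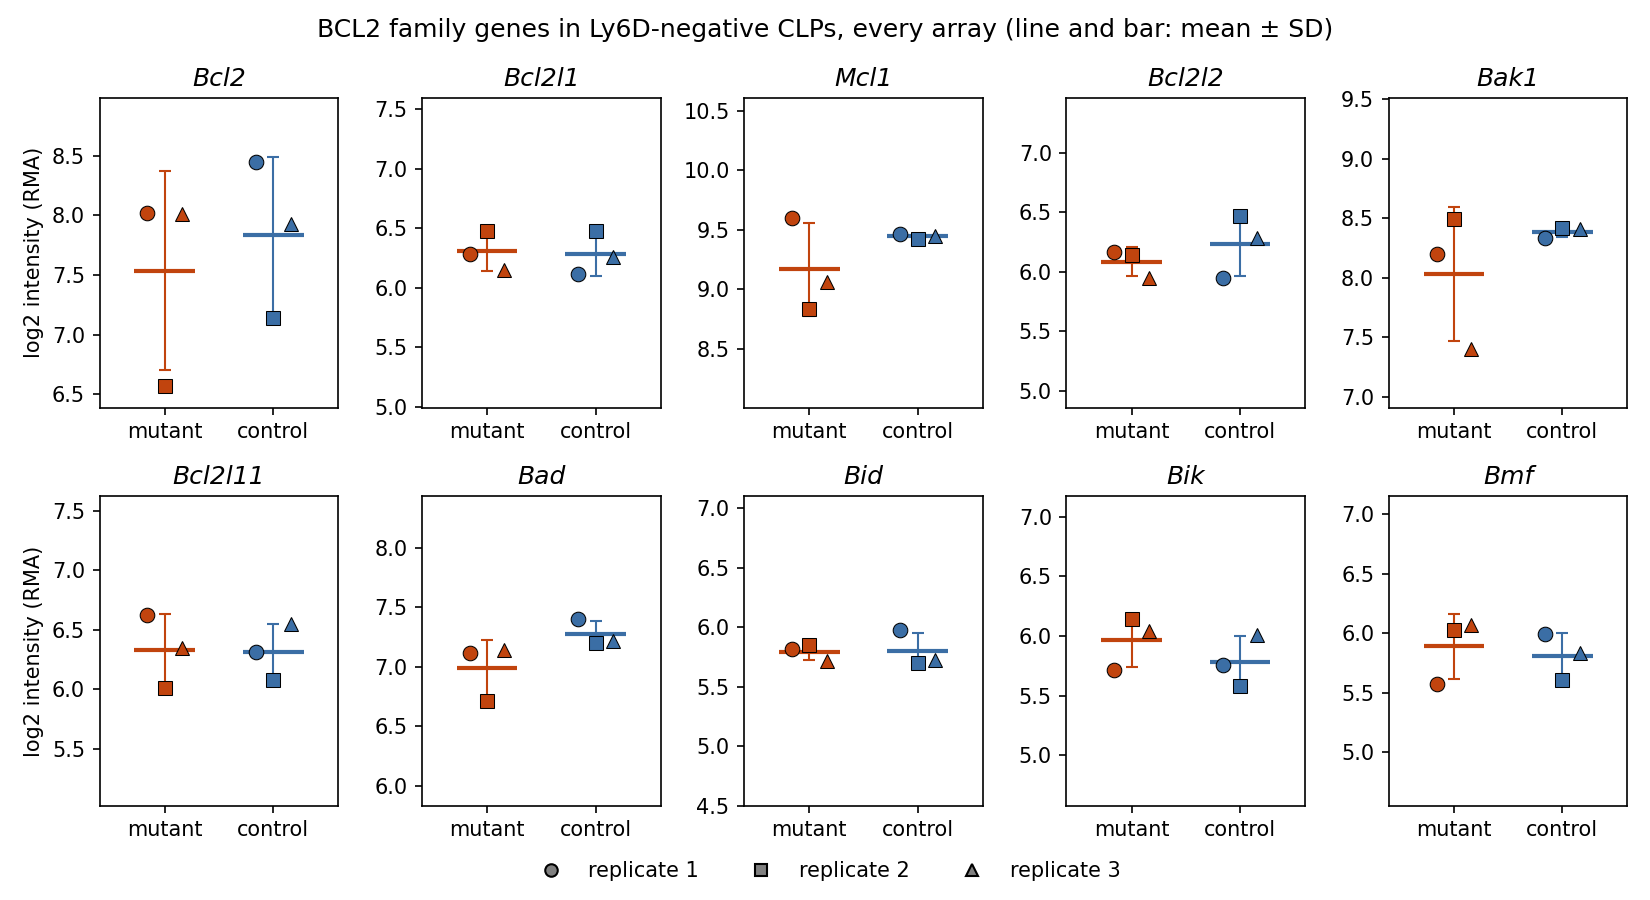
Log2 intensity of the 10 BCL2 family genes in every array (y axis, each panel spanning the same height), with mutant samples to the left of control samples. Lines and bars are the mean ± SD of 3 arrays, and symbols mark the replicate number. Bad is the only gene whose mutant and control values do not overlap, and Mcl1 and Bak1 are tight in controls and spread in mutants.

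Of the 4 survival genes, 3 had a lower mean in mutants and Bcl2l1 a slightly higher one, and none passed. Mcl1 encodes a short-lived survival protein that lymphoid progenitors need. Its values were 9.60, 8.83 and 9.06 in mutant replicates 1, 2 and 3 and 9.46, 9.43 and 9.45 in control replicates 1, 2 and 3. Mutant replicate 1 was the highest of the 6 arrays, and mutant replicates 2 and 3 lay below every control. The means were 9.17 ± 0.39 in mutants and 9.45 ± 0.02 in controls (SD, n = 3 each). The log2 difference was -0.28 ± 0.19 (SE), with a 95% interval of -0.72 to 0.16 and an adjusted p of 0.616 in limma. Without mutant replicate 1 the difference was -0.50, and without mutant replicate 2 it was -0.11, neither past the threshold. A second probe set annotated to Mcl1 read 8.73, 8.20 and 8.02 in mutants and 8.55, 8.46 and 8.65 in controls. On it, too, mutant replicate 1 was the highest array and mutant replicates 2 and 3 were the lowest, and the difference was -0.24.

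Bcl2, the founding survival gene of the family, varied most between arrays. It was at 8.02, 6.57 and 8.01 in mutant replicates 1, 2 and 3 and at 8.44, 7.14 and 7.93 in control replicates 1, 2 and 3. The lowest array in each group was replicate 2, and the groups overlapped. Its SD over the 6 arrays, 0.69, exceeded that of 98.7% of tested genes. The means were 7.54 ± 0.83 in mutants and 7.84 ± 0.66 in controls (SD, n = 3 each), a log2 difference of -0.30 ± 0.45 (SE; 95% interval -1.34 to 0.73; adjusted p = 0.798 in limma). That interval runs from 0.396 to 1.66 of the control level, so these arrays settle neither a loss nor a gain of that size. Leaving out mutant replicate 2 turned the difference to 0.18, leaving out control replicate 1 left 0.00167, and leaving out control replicate 2 gave -0.65. A second probe set of the gene was at 6.07, 5.58 and 5.83 in mutants and 6.84, 5.65 and 5.94 in controls. There control replicate 1 stood apart on the high side, and replicate 2 was again the lowest array of each group.

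The tested genes whose values followed those of Bcl2 most closely over the 6 arrays were Rfk (Pearson r = 0.986), which encodes riboflavin kinase, Hsd11b1 (r = 0.982), a steroid dehydrogenase gene, Fbxo30 (r = 0.981), Bzw2 (r = 0.978) and 1700084E18Rik (r = 0.9753). These are the 5 highest of 13307 correlations over only 6 points, which share arrays and normalization, and they are given as a description. Hsd11b1, for example, was at 6.54, 5.49 and 6.36 in mutants and 6.61, 5.87 and 6.24 in controls, low in replicate 2 of both groups. Of 8 marker lists of other cell types, 3 had their lowest mean in replicate 2 of both groups, and 5 did not. The 7 myeloid marker genes, 1 of the 3 lists, had a mean log2 value of 10.60, 9.82 and 10.10 in mutants and 10.47, 9.76 and 9.97 in controls. Within it 3 of the 7 genes (Elane, Mpo and S100a8) were lowest in replicate 2 of both groups, while Lyz2 was at 10.72, 9.79 and 9.88 in mutants and 10.14, 10.57 and 10.40 in controls. The natural killer and innate lymphoid list had a mean of 6.42, 6.10 and 6.39 in mutants and 6.72, 5.99 and 6.35 in controls, and 1 of its 3 genes, Nkg7, followed that order. Nkg7 was at 8.82, 7.49 and 8.65 in mutants and 9.05, 7.73 and 8.37 in controls. Ncr1 (5.10, 5.27 and 5.10) and Klrb1c (5.33, 5.55 and 5.43) were instead highest in mutant replicate 2 among mutants. In controls both were lowest in replicate 2, with Ncr1 at 5.82, 5.09 and 5.14 and Klrb1c at 5.30, 5.135 and 5.55. The megakaryocyte list, the third of these, had a mean of 6.00, 5.74 and 5.90 in mutants and 6.05, 5.30 and 5.63 in controls, with 1 of 3 genes (Pf4) in that order. The B lineage list went the other way, highest in replicate 2 of both groups, at 8.59, 8.74 and 8.37 in mutants and 8.49, 8.88 and 8.81 in controls. Over the 8 lists 5 of 30 genes were lowest in replicate 2 of both groups. The share of all tested genes in that order was not counted, so these counts have no background beside them. The part of such cells in the Bcl2 values was not tested.

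Bcl2l1, which encodes the survival protein BCL-XL, was at 6.28, 6.48 and 6.15 in mutants and 6.11, 6.48 and 6.26 in controls. The groups lay on top of each other, with a log2 difference of 0.0227 ± 0.14 (SE; 95% interval -0.31 to 0.36). With arrays centred on their medians it was negative, at -0.0395. Bcl2l2, the gene of the survival protein BCL-W, was at 6.17, 6.14 and 5.94 in mutants and 5.95, 6.47 and 6.28 in controls. Mutant replicate 3 and control replicate 1 were the low arrays, and the log2 difference was -0.15 ± 0.16 (SE; 95% interval -0.51 to 0.22). Without control replicate 2 it was -0.03.

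Bak1 encodes BAK, a protein that forms the pores in the outer membrane. It was at 8.20, 8.50 and 7.40 in mutant replicates 1, 2 and 3 and at 8.33, 8.42 and 8.41 in the controls. A lone array, mutant replicate 3, was low, and mutant replicate 2 was the highest of all 6. The means were 8.03 ± 0.57 in mutants and 8.39 ± 0.05 in controls (SD, n = 3 each), a log2 difference of -0.36 ± 0.25 (SE; 95% interval -0.94 to 0.23; adjusted p = 0.627 in limma). Without mutant replicate 3 the difference was -0.04. Without mutant replicate 2 it was -0.59. Mutant replicate 3 and control replicate 1 are the arrays with low Y-linked expression. Between these 2 arrays Bak1 differed by -0.93, and among the other 4 the log2 difference of the means was -0.07. Split the same way, Mcl1 differed by -0.40 between the 2 arrays with low Y-linked expression and by -0.22 among the other 4, Bad by -0.26 and -0.29, and Bid by -0.26 and 0.12. Bcl2 differed by -0.43 and -0.24, Bik by 0.28 and 0.13, and Bcl2l2 by -0.00137 and -0.22. For Bcl2l1 the differences were 0.04 and 0.01, for Bcl2l11 0.03 and 0.00143, and for Bmf 0.08 and 0.08. The first value of each pair compares 1 array with 1. Bax, the gene of the other main effector, was not analysed here.

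**Figure D2:**
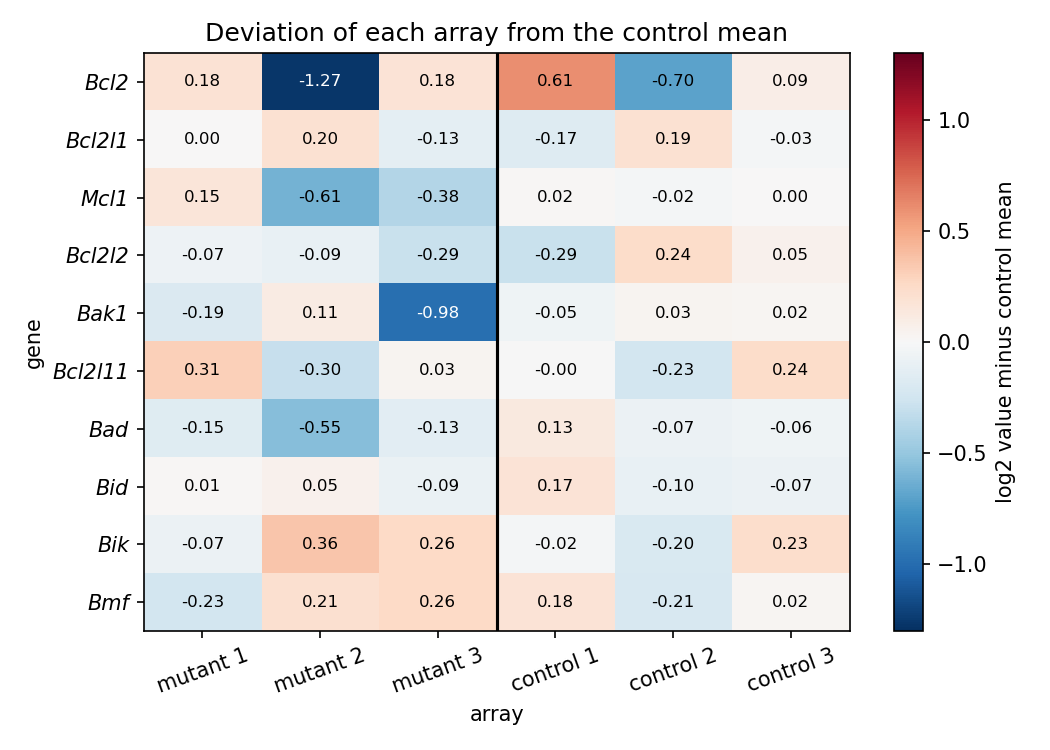
Deviation of each array from the control mean for the 10 BCL2 family genes (rows, log2 units, colour and number), with the 3 mutant arrays left of the line and the 3 control arrays right of it. The strongest departures are Bcl2 in mutant replicate 2 and control replicates 1 and 2, Bak1 in mutant replicate 3, and Mcl1 and Bad in mutant replicate 2.

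The BH3-only genes took both directions, and none passed. Bad encodes a sensor that growth factor signals hold inactive by phosphorylation. It was at 7.12, 6.72 and 7.14 in mutants and 7.40, 7.20 and 7.21 in controls. Every mutant array lay below every control array, by 0.06 between the nearest 2, and mutant replicate 2 was well below the rest. The means were 6.99 ± 0.24 in mutants and 7.27 ± 0.11 in controls (SD, n = 3 each), a log2 difference of -0.28 ± 0.15 (SE; 95% interval -0.63 to 0.06). Its unadjusted p, 0.0977, was the lowest of the members, and the adjusted p was 0.595 in limma. Over the alternatives tried the difference stayed negative and ran from -0.35 to -0.12, with adjusted p from 0.264 to 0.886. Without mutant replicate 2 it was -0.14. Another probe set, annotated to both Gpr137 and Bad, was at 5.60, 5.58 and 5.28 in mutants and 5.73, 5.78 and 5.67 in controls, again without overlap, but its signal cannot be assigned to Bad alone.

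Bcl2l11, the gene of BIM, the sensor most tied to cytokine loss in lymphocytes, was at 6.62, 6.01 and 6.35 in mutants and 6.31, 6.08 and 6.55 in controls. The groups overlapped, with a log2 difference of 0.0125 ± 0.19 (SE; 95% interval -0.42 to 0.45), which was negative (-0.0497) with arrays centred on their medians. Bmf, a sensor linked to loss of attachment, was at 5.58, 6.02 and 6.07 in mutants and 5.99, 5.60 and 5.83 in controls. The log2 difference was 0.08 ± 0.17 (SE; 95% interval -0.32 to 0.48). Bid, which links death receptors to mitochondria after cleavage by caspase 8, was the steadiest member, with a range over the 6 arrays of 0.27. It was at 5.82, 5.85 and 5.72 in mutants and 5.98, 5.70 and 5.73 in controls, a log2 difference of -0.00697 ± 0.12 (SE; 95% interval -0.29 to 0.28). Bik, another BH3-only gene, was at 5.71, 6.14 and 6.04 in mutants and 5.76, 5.58 and 6.01 in controls. Its log2 difference, 0.18 ± 0.16 (SE; 95% interval -0.20 to 0.56), was the highest of the members and kept its sign over the alternatives tried, from 0.08 to 0.31.

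**Figure D3:**
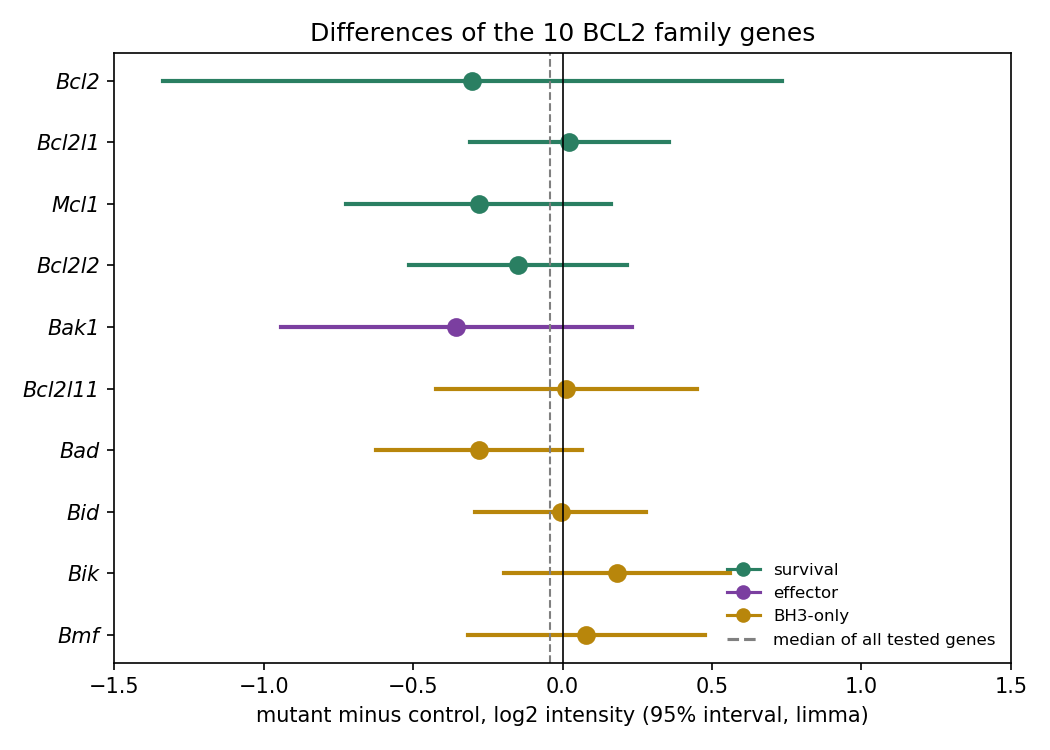
Log2 difference, mutant minus control, of the 10 BCL2 family genes (points) with 95% intervals from limma (bars), coloured by role, and the median of all tested genes (dashed line). Every interval includes 0, and that of Bcl2 is the widest, from -1.34 to 0.73.

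The members with the most negative differences were also bright probe sets, and bright genes as a whole were lower on part of the mutant arrays. With the 22180 genes divided into 10 groups by mean value, the brightest group had a median deviation from the control mean of -0.00183 in mutant replicate 1, -0.41 in mutant replicate 2 and -0.19 in mutant replicate 3. Mcl1 and Bak1 are in that group, whose median mutant minus control difference was -0.21. Bcl2 and Bad are in the group below it, with a median difference of -0.16. Bcl2l1 and Bcl2l11 are in the next, with a median of -0.08, and Bcl2l2, Bid, Bik and Bmf are in a group with a median of 0.00252. Dim genes went the other way: for the dimmest group the deviations of mutant replicates 2 and 3 were 0.09 and 0.05. With trends in brightness removed by cyclic loess the difference of Mcl1 was -0.09, that of Bak1 -0.18, that of Bcl2 -0.15 and that of Bad -0.16, while Bik stayed at 0.17. Single arrays did not always follow the group of the gene. For Bak1, mutant replicates 2 and 3 were at 0.11 and -0.985, beside -0.41 and -0.19 for its group. For Bcl2 the same arrays were at -1.27 and 0.18, beside -0.29 and -0.18. Mcl1 (-0.61 and -0.38) and Bad (-0.55 and -0.13) were below the control mean on both, as their groups were. The part of the brightness trend in the member values was not tested. Brightness here orders probe sets and does not compare transcript amounts between genes.

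**Figure D4:**
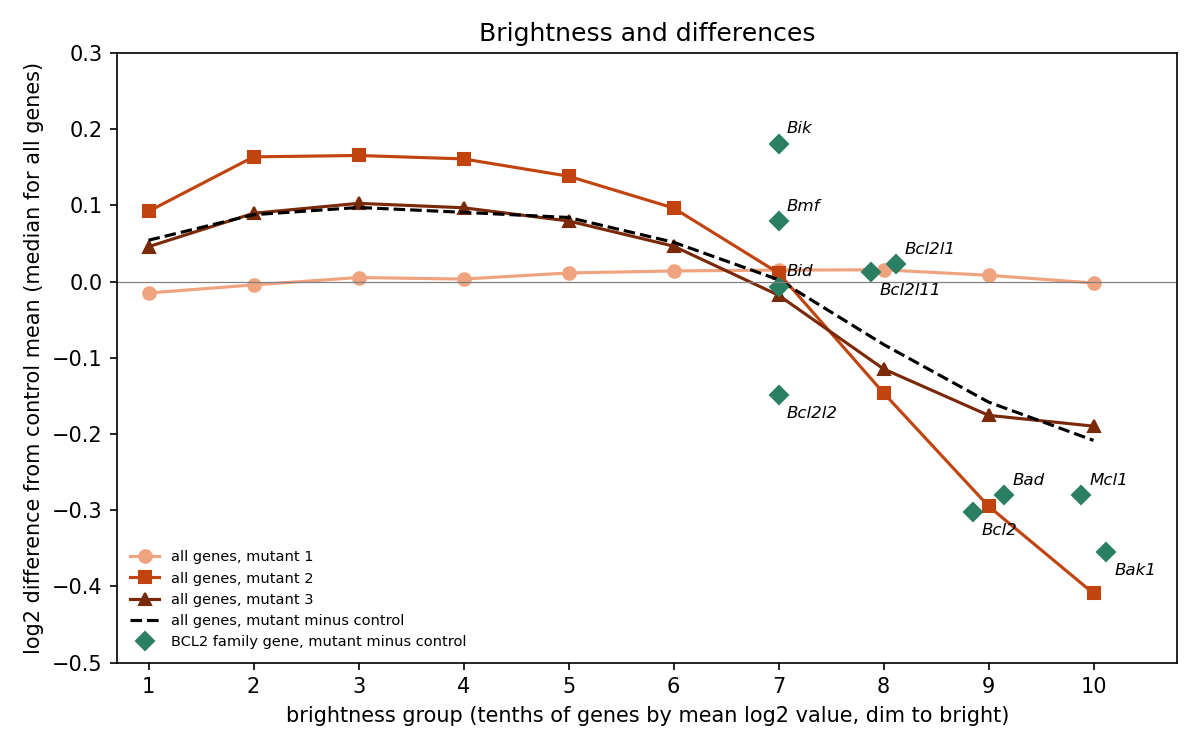
Median log2 deviation from the control mean of all genes in 10 groups of equal size, ordered from dim to bright (x axis), for each mutant array (solid lines) and for mutant minus control (dashed line), with the difference of each BCL2 family gene as a diamond, shifted slightly sideways where diamonds would collide. Mutant replicate 1 stays near 0 throughout, and mutant replicates 2 and 3 reach -0.41 and -0.19 in the brightest group, where Mcl1 and Bak1 lie.

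The rest of the BCL2 family showed no member past the threshold either. Of 13 further family genes listed, 9 had a probe set of their own and 4 were bright enough to be tested, of which 2 were higher in mutants and 2 lower (median -0.0194; 0 higher and 4 lower with arrays centred on their medians). Bcl2a1a, a survival gene of blood cells, was at 5.98, 5.22 and 5.57 in mutants and 5.87, 5.52 and 5.80 in controls; near-identical copies of this gene make its signal uncertain. Bok, an effector-like gene, differed by -0.06 ± 0.14 (SE), and Bcl2l13 by 0.05 ± 0.11. Bbc3, the gene of the p53-induced sensor PUMA, was below the brightness needed for testing, at 4.49, 4.20 and 4.05 in mutants and 4.34, 4.29 and 4.32 in controls.

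Among genes that act on the family from upstream, 10 of 12 tested cytokine and kinase input genes were lower in mutants (median -0.09) and 0 passed. After cyclic loess or repeated quantile normalization 5 of the 12 were lower, and the medians were 0.0199 and 0.00605. Il7r, the gene of the interleukin 7 receptor alpha chain, was at 9.80, 9.72 and 9.78 in mutants and 9.81, 10.35 and 10.16 in controls. The groups did not overlap, by 0.02 between mutant replicate 1 and control replicate 1, and the log2 difference was -0.34 ± 0.15 (SE; adjusted p = 0.594 in limma). Pim3, a survival kinase gene, was at 5.38 ± 0.05 in mutants and 5.58 ± 0.04 in controls, and Stat5b, which encodes a transcription factor downstream of the receptor, at 6.58 ± 0.08 in mutants and 6.72 ± 0.05 in controls (SD, n = 3 each). Foxo3, a forkhead gene known to activate Bcl2l11, differed by 0.00601 ± 0.12 (SE). Of the genes that set the stability of MCL1 and BIM proteins, 5 of 5 tested were lower in mutants (median -0.16), and 2 of 5 after cyclic loess (median 0.0102). They included the deubiquitinase gene Usp9x (-0.29 ± 0.17, SE), the ubiquitin ligase gene Huwe1 (-0.18 ± 0.11) and the kinase gene Gsk3b (-0.16 ± 0.13). Trp53 is not analysed here.

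Most genes in the lists of caspases and apoptosome and of inhibitors of apoptosis had a lower mean in mutants, with 0 past the threshold. All 6 tested inhibitor of apoptosis genes were lower in mutants (median -0.30), also after cyclic loess (median -0.21, and -0.00844 over all tested genes). Before loess the list's median deviation from the control mean was -0.055, -0.55 and -0.32 in mutants and -0.095, 0.13 and -0.041 in controls. Mutant replicate 1 thus lay within the range of the controls, and the lower values were those of mutant replicates 2 and 3. Birc5, the gene of survivin, which also serves in mitosis, was at 8.76 ± 0.17 in mutants and 9.15 ± 0.18 in controls (SD, n = 3 each), a log2 difference of -0.39 ± 0.14 (SE; adjusted p = 0.594 in limma). Birc2, whose product ubiquitinates death receptor partners, was at 7.81, 6.56 and 7.45 in mutants and 7.78, 8.05 and 7.73 in controls, with mutant replicate 2 far below the rest. Birc6, a large ubiquitin ligase gene, differed by -0.29 ± 0.15. Of 10 tested caspase and apoptosome genes 9 were lower (median -0.17), and 7 after cyclic loess (median -0.05). They included Aifm1, the gene of a flavoprotein released from mitochondria (-0.20 ± 0.12), the inhibitor antagonist gene Diablo (-0.38 ± 0.23) and the apoptosome scaffold gene Apaf1 (-0.21 ± 0.13).

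Partners at the outer membrane and in death receptor signalling gave 5 of 7 and 3 of 4 tested genes lower, with medians of -0.15 and -0.07, which cyclic loess moved to -0.011 and -0.09. Becn1, a BCL2-binding autophagy gene, differed by -0.19 ± 0.11 (SE), the channel genes Vdac1 by 0.19 ± 0.12 and Vdac3 by -0.38 ± 0.26. Cflar, which encodes the caspase 8 inhibitor FLIP, differed by -0.34 ± 0.15, Tnfrsf1a by -0.12 ± 0.16 and Tradd by 0.0281 ± 0.18. None of these passed in limma (lowest adjusted p = 0.594). Bright genes as a whole were lower on mutant replicates 2 and 3, and the part of that trend in these lists was not tested.

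**Figure D5:**
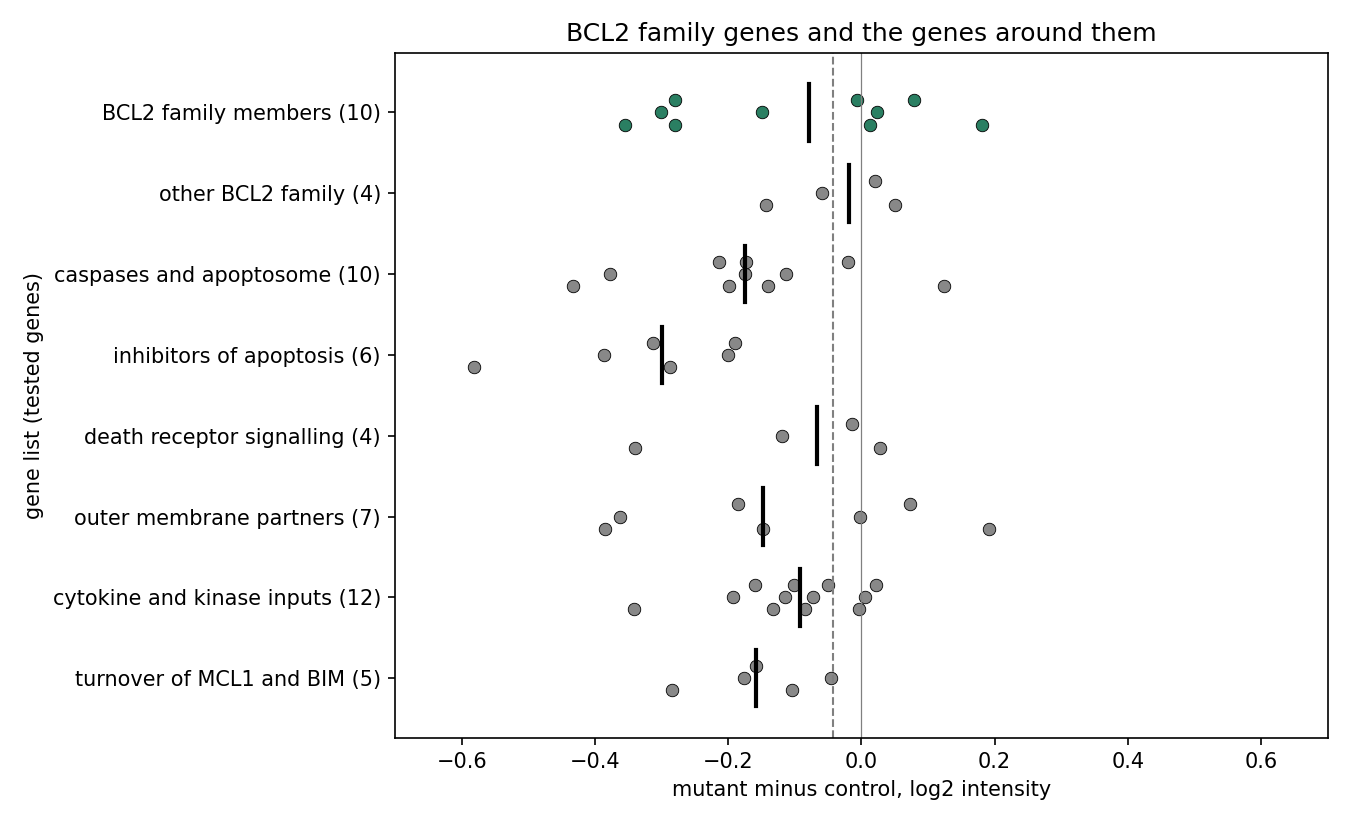
Log2 difference, mutant minus control, of each tested gene (points) in the BCL2 family members and in the 7 lists around them (rows, number of tested genes in brackets), with each list's median (black bar) and the median of all tested genes (dashed line). The inhibitor of apoptosis genes lie lowest, with a median of -0.30, and the members have a median of -0.08.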

How the data were processed

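Per the submitters' processing notes, the authors made the deposited log2 probe set intensities with RMA (version not given in the sources used here), which corrects background, normalizes arrays and summarises probes. It leaves no detection call. Probe sets were named from a platform annotation table: 23521 of 41345 carried 1 gene symbol, 1814 several, and 16010 none. The probe set with the highest mean stood for each gene, and the lowest 40% of genes (means under 4.84) were not tested. Groups and replicate numbers came from the sample titles. The groups were compared with limma 3.58.1 in R 4.3.3 (2-sided, Benjamini-Hochberg, threshold 0.05), and figures were drawn with matplotlib 3.10.9. The fit was tested on simulated data for 13308 genes, of which 200 were changed. It recovered 74% of changes of 1 log2 unit and 94% of changes of 2 log2 units, with 16 false calls. The simulated noise was independent, with no outlying array or brightness trend, and changes under 1 log2 unit were not simulated.

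The members and lists were chosen with earlier results of these data known. All members were named. From each list around the family the 3 tested genes with the lowest p were named, plus Bok, Bbc3, Il7r and Foxo3. Single marker genes of other cell types, and Xist, Ly6d and Thy1, were named after their values were seen. Alternatives covered filters, probe sets, variance models, array weights, normalizations, a replicate block, Y-linked expression and leaving out arrays. When an array was left out, the same genes were tested. Promoter sequences are RefSeq's on GRCm38.p6.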

Additional observations from a re-analysis of the deposited data

How the results depend on the processing

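The count of 0 members past the threshold held under 17 of the 18 refits and at an adjusted p of 0.1. The exception was array weights, which called 2 of 10 members beside 2960 of all 13308 tested genes, so the calls are not particular to the members. The 2 were Bak1 (-0.91, adjusted p = 0.00907 in limma, up to 0.936 over the refits) and Mcl1 (-0.35, adjusted p = 0.0352 in limma, up to 0.886). That setting gave mutant replicate 3 a weight of 5.20 against 0.214 to 1.89 for the others. Over all genes, leaving out 1 array gave 0 to 4 calls. The median of the members was -0.14 with arrays centred on their medians, where that of all genes was -0.11, and -0.16 to -0.0256 on leaving out 1 array, lowest without mutant replicate 1. The replicate number as a replicate block left 0 genes and 0 members past the threshold and the median at -0.08. With that block the SE of the Bcl2 difference was 0.17, against 0.45 in the main fit, and its adjusted p was 0.603 in limma. The numbers were not taken to pair the samples (deviations from the group means correlated at 0.13, 0.20 and -0.13 for numbers 1, 2 and 3). Mcl1, Bcl2l2, Bad, Bak1 and Bik kept their direction in every refit. The other 5 changed sign in some. Bcl2 was at 0.23 and Bcl2l1 at -0.14 with array weights, Bcl2l1 at -0.0395 and Bcl2l11 at -0.0497 with centred arrays, and Bid at 0.12 on the 4 arrays with high Y-linked expression, a split chosen after seeing the data, as was the second probe set of Bcl2 and Mcl1. On leaving out 1 array the ranges were -0.65 to 0.18 for Bcl2, -0.0641 to 0.12 for Bcl2l1, -0.13 to 0.17 for Bcl2l11, -0.0564 to 0.0799 for Bid and -0.0239 to 0.24 for Bmf. The cause of these changes was not tested. RMA leaves no detection call, so these values do not show where signal ends and background begins for dim genes.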
